A study of Mus musculus with 7 samples.

Results

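Integrins are the cell surface receptors through which cells hold on to the extracellular matrix, and laminins are the matrix proteins of the basement membrane that many of them bind. The genes described here were chosen by name, as every symbol in the deposited table that starts with Itga, is Itgb followed by a number, or is Lama, Lamb or Lamc followed by a number from 1 to 5. They were 37 of the 24346 genes of the table: 18 integrin alpha subunits, 8 integrin beta subunits and 11 laminin chains. They were measured by RNA-sequencing in primary neurospheres grown from the hippocampus of 2-month-old C57/BL6 mice, in 4 control libraries (WT_116, WT_213, WT_215 and WT_220) and 3 Med23 CKO libraries (KO_117, KO_214 and KO_218). Med23 CKO mice were Nestin-CreER:Med23 flox/flox, in which a tamoxifen-activated Cre recombinase is driven in Nestin-expressing neural stem cells. According to the study, endothelial cells express this Cre too. The controls, labelled wild type, were littermates with the genotypes Med23 flox/+ and Med23 flox/flox in the methods of the study. Both groups received tamoxifen by mouth at 200 mg/kg daily for 5 days, at an age of 2 months in the labels and at a younger age in the study's methods for cultures. The cells were cultured with EGF and FGF. Where values are listed for each library, they stand in the order of names just given.

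An integrin is a pair of 1 alpha and 1 beta subunit, and the pair decides what it binds: subunits alpha3, alpha6 and alpha7 bind laminin, alpha1 and alpha2 bind collagen, alphav and alpha5 bind matrix proteins through a short Arg-Gly-Asp sequence, and the beta2 pairs are found on leukocytes, microglia included. Beta8 pairs with alphav alone, and this pair activates latent TGF-beta. A laminin is a trimer of 1 alpha, 1 beta and 1 gamma chain, and the gamma1 chain is part of most of them. In the adult neurogenic niches, neural stem cells touch laminin-rich basement membranes around blood vessels, and beta1 integrin is among the receptors that stem cells use there.

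Levels are given as FPKM, fragments counted per length of transcript and per size of the library, a scale on which genes can be compared per length. Differences are the Med23 CKO mean minus the control mean of log2(FPKM + 1), which understates the change of low genes. Of the 37 genes, 28 had a mean of at least 0.5 FPKM over the 7 libraries and entered the fit with limma on 14151 genes. The 9 others (Itga2, Itga11, Itgad, Itgae, Itgal, Itgb6, Itgb7, Lama1 and Lamb3) had at most 1.20 FPKM in any library. Med23 itself had 10.3, 12.9, 11.4 and 10.1 FPKM in the control libraries, against 9.97, 9.27 and 8.12 FPKM in Med23 CKO, a difference of -0.26 (standard error 0.18, unadjusted limma p = 0.175, and p = 0.0571 in a two-sided exact permutation test). Every Med23 CKO value of Med23 lay below the control values, by a margin of less than 0.1 FPKM at its narrowest, in a measure that covers the whole gene and not only its floxed exons. Markers of neural stem cells and astrocytes, 12 of 12 of them present in every library, summed to between 2021 and 4023 FPKM in control and between 2353 and 3970 FPKM in Med23 CKO. In KO_214, the summed markers of microglia and macrophages (1502 FPKM), of endothelial cells (152 FPKM) and of mural cells and fibroblasts (364 FPKM) were higher than in every other library, where the highest were 375, 90.0 and 98.4 FPKM. The plot of differences by role shows each estimate with and without KO_214.

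Sequences around the RefSeq start of 3 of these genes are shown. Itgb1 and Itgb8 were the only members whose groups did not overlap (1 above and 1 below, each 3.57% of the 28, beside 0.784% above and 1.53% below among all genes tested). Itgam is a leukocyte integrin and 1 of 18 members with their highest value in KO_214, of which 8 are laminins. Each sequence is the window of GRCm38.p6 from 250 bases before to 50 bases after the gene's start in RefSeq, on the gene's strand, 5′ to 3′. Of the 37 genes, 23 had such a window in the table used, in a count that left out the chromosome of Lama3. The window of Itgb1 is chr8:128685404-128685703 (forward strand), that of Itgb8 chr12:119238227-119238526 (reverse strand) and that of Itgam chr7:128062390-128062689 (forward strand). In GENCODE M21 the Itgb8 gene reaches 119238802, so its window lies inside the gene. The Itgb1 and Itgam windows begin before the GENCODE starts, 128685654 and 128062640, so the windows are not placed alike. In Itgb1 and Itgb8, capitals mark the dinucleotide CG. In Itgam, capitals mark the letters GAGGAA, on either strand, the core bound by PU.1, a transcription factor of myeloid cells.
Itgb1: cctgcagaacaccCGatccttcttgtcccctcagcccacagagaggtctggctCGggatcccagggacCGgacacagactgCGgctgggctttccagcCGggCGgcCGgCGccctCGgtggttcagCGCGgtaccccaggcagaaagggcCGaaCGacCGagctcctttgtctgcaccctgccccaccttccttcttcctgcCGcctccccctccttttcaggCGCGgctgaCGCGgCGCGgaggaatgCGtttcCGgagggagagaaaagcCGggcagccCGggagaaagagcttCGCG
Itgb8: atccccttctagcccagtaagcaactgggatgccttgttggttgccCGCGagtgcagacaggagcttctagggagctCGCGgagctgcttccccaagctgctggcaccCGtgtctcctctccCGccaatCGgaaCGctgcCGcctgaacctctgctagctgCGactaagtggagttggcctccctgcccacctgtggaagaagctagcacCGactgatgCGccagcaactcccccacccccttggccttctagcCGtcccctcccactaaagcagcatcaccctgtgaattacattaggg
Itgam: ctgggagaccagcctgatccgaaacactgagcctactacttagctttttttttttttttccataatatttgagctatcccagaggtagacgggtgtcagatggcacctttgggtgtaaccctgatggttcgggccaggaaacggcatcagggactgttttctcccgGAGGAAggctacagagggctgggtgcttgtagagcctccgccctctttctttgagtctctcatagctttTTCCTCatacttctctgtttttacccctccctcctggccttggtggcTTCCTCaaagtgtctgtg
The Itgb1 window holds 27 CG dinucleotides and the Itgb8 window 13, where the median of 32851 such windows is 7. GAGGAA occurs at least once in 28.3% of all windows and at least 3 times in 0.685% of them. It occurs 3 times in the Itgam window, and at least once in 14 of the 26 windows of the members. Among these it is absent from the window of Itgax, another leukocyte integrin, and present 2 times in that of Itgav and 1 time in that of Itgb1, where it is not in capitals. These matches describe the letters and say nothing of binding in these cells.

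Of the 28 integrin and laminin genes in the fit, Itgb1 and Itga1 were higher and Itgb8 and Itga7 lower in Med23 CKO when an unadjusted limma p under 0.05 was asked for, and all 4 are integrins. That is 7.14% of the 28 in each direction, beside 0.502% of all genes tested that were higher and 0.996% that were lower. At an adjusted p under 0.05, limma called 0 of the 28 and 0 of all 14151 genes, while the exact permutation test, with 35 splits, is too coarse to reach that threshold for single genes. In these neurospheres of mixed cells, fewer cells of a type and less RNA per cell cannot be told apart. The labels do not state that each number is a separate mouse. The study describes each sample as the neurospheres of an individual mouse brain, but with fewer control samples than the labels list, and the p-values measure the spread between these libraries.

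**Figure D1:**
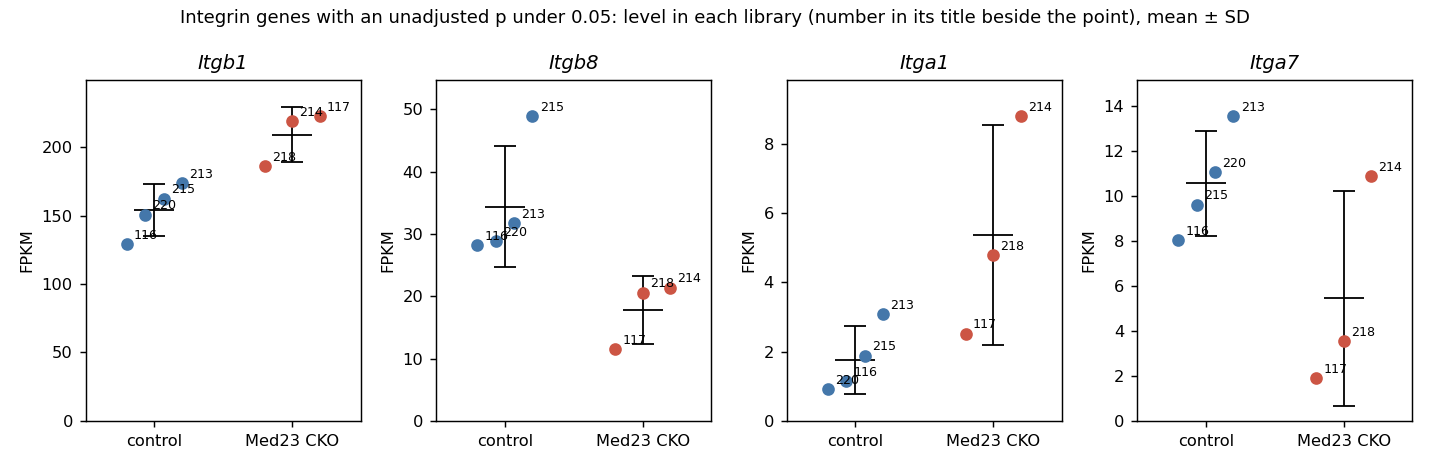
FPKM (vertical axes, from 0) of the 4 integrin genes with an unadjusted p under 0.05 in control (blue) and Med23 CKO (red) libraries. Points are libraries, with the number of the title beside each, and the horizontal mark and bars are the group mean ± SD (n = 4 and 3). The groups do not overlap for Itgb1 and Itgb8, and overlap for Itga1 (2.51 FPKM in KO_117, 3.08 FPKM in WT_213) and Itga7 (10.9 FPKM in KO_214).

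Itgb8, the beta subunit that pairs with alphav, had 28.2, 31.7, 48.9 and 28.8 FPKM in the control libraries, against 11.5, 21.4 and 20.6 FPKM in Med23 CKO. Every Med23 CKO value lay below every control value, and KO_117 was the lowest. The mean was 34.4 ± 9.78 FPKM (SD, n = 4) for the control libraries, against 17.8 ± 5.50 FPKM (SD, n = 3) for Med23 CKO, with a difference of -0.92 on the log2 scale (standard error 0.29, unadjusted limma p = 0.0138, adjusted p = 0.9999, exact permutation p = 0.0286). That exact p is the smallest that 3 libraries against 4 allow. Itgb8 (chromosome 12 of GRCm38, 119158022 to 119238802, reverse strand, in GENCODE M21) was the only member of the list with all Med23 CKO values below the control values. It was also the only member whose unadjusted p stayed under 0.05 under each of the 17 alternatives tried, with p between 0.00872 and 0.0406. Without KO_214 the difference was -1.07, and without KO_117 it was -0.65.

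Itgb1 encodes the beta subunit shared by the largest number of integrin pairs, and it was the most abundant member in every library. It had 129, 173, 162 and 151 FPKM in the control libraries, against 222, 219 and 186 FPKM in Med23 CKO. Every Med23 CKO value lay above every control value, with 173 and 186 FPKM as the nearest values of the groups. The mean was 154 ± 18.9 FPKM (SD, n = 4) for the control libraries, against 209 ± 20.0 FPKM (SD, n = 3) for Med23 CKO, with a difference of 0.44 (standard error 0.17, unadjusted limma p = 0.0298, adjusted p = 0.9999, exact permutation p = 0.0286). Itgb1 (chromosome 8, 128685654 to 128733200, forward strand) was the only member separated in the upward direction. Its difference was 0.36 to 0.53 when single libraries were omitted, but it missed the unadjusted threshold without WT_116, WT_220, KO_117 or KO_214 (0.36, 0.44, 0.40 and 0.41). With array weights in limma it was 0.27 and did not pass.

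Itga1, a collagen-binding subunit, had 1.15, 3.08, 1.89 and 0.914 FPKM in the control libraries, against 2.51, 8.79 and 4.78 FPKM in Med23 CKO. The lowest Med23 CKO value, in KO_117, was within the range of the controls. The difference was 1.14 (standard error 0.41, unadjusted limma p = 0.0254, adjusted p = 0.9999, exact permutation p = 0.0857). The unadjusted threshold was missed without KO_214 (0.77), WT_116 (1.05), WT_220 (0.99) or KO_218 (1.15). Itga1 lies on chromosome 13 (114953096 to 115101964, reverse strand) and contains the gene Pelo on the same strand, which had between 9.01 and 21.8 FPKM over the libraries and a difference of -0.11.

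Itga7, a laminin-binding subunit, had 8.05, 13.6, 9.63 and 11.1 FPKM in the control libraries, against 1.91, 10.9 and 3.55 FPKM in Med23 CKO. KO_117 and KO_218 were below all controls, whereas KO_214 was among them. The difference was -1.08 (standard error 0.46, unadjusted limma p = 0.0497, adjusted p = 0.9999, exact permutation p = 0.114). Without KO_214 it was -1.65, and the groups no longer overlapped, while without KO_117 it was -0.63. Leaving out KO_214 was the only omission of the 7 after which Itga7 passed the unadjusted threshold. Itga7 (chromosome 10, 128933818 to 128958282, forward strand) overlaps Mettl7b on the other strand, which had between 1.31 and 5.33 FPKM, and the counting was not stated to use strand.

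The other laminin-binding subunits did not pass the test. Itga6, the most abundant of them, had 9.04, 17.9, 19.0 and 19.1 FPKM in the control libraries, against 27.0, 13.2 and 11.6 FPKM in Med23 CKO, with a difference of 0.04 (standard error 0.37). KO_117 was the highest library of Itga6 and the lowest of Itga7. Itga3 ranged from 1.65 to 4.96 FPKM in control and from 1.22 to 11.97 FPKM in Med23 CKO, a difference of 0.32 that was -0.30 without KO_214. The laminin-binding beta subunit Itgb4 ranged from 0.714 to 3.62 FPKM in control and from 0.265 to 2.40 FPKM in Med23 CKO.

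Among the subunits that bind Arg-Gly-Asp, Itgav was the most abundant alpha subunit of the list by its mean over the libraries (50.9 FPKM). It had 64.5, 59.8, 43.6 and 22.7 FPKM in the control libraries, against 27.3, 75.2 and 63.2 FPKM in Med23 CKO, so that the groups overlapped widely (difference 0.19, standard error 0.46). Since Itgav and Itgb8 encode both subunits of 1 receptor, their ratio within each library was computed, a quantity chosen after the values were seen. Itgav FPKM divided by Itgb8 FPKM was 2.29, 1.89, 0.892 and 0.788 in control and 2.38, 3.52 and 3.07 in Med23 CKO. All Med23 CKO ratios lay above the control ratios, with 2.29 and 2.38 as the nearest values. Because Itgb8 alone already separated the groups, the ratio is not a separate result. Itgb5, another partner of alphav, ranged from 10.1 to 27.6 FPKM among the controls, with 12.4, 50.3 and 23.5 FPKM in Med23 CKO (difference 0.59, standard error 0.50), and 0.09 was left of that difference without KO_214. Itgb3, a further partner, lay within 0.680 to 2.25 FPKM among the controls, against 0.436, 7.91 and 1.51 FPKM in Med23 CKO. Itga5, the fibronectin receptor subunit, ranged from 8.05 to 15.0 FPKM among the controls, with 14.7, 37.5 and 10.1 FPKM in Med23 CKO, with a difference of 0.58 (standard error 0.43) and of 0.07 without KO_214. Itga8 ranged from 4.67 to 28.4 FPKM in control and from 10.6 to 20.5 FPKM in Med23 CKO, and Itga2b was at most 1.64 FPKM throughout.

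Itga4 and Itga9 are close relatives that bind VCAM1 and other matrix or cell surface ligands. Itga4 had 4.53, 8.01, 6.83 and 6.04 FPKM in the control libraries, against 10.7, 3.92 and 6.99 FPKM in Med23 CKO, a difference of 0.09 (standard error 0.33). Itga9 ranged from 1.58 to 3.05 FPKM among the controls, with 9.09, 2.10 and 1.76 FPKM in Med23 CKO, so that its difference of 0.52 became -0.07 without KO_117. For these genes and for Itga6 and Itgb1, the highest of the 7 values was in KO_117.

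The make-up of the beta subunits was computed as shares within each library, a quantity chosen after the values were seen. Summed over the 8 beta genes, the level was between 189 and 255 FPKM in control and between 244 and 385 FPKM in Med23 CKO. Itgb8 made up 14.9%, 12.4%, 21.0% and 14.9% of that sum in control and 4.60%, 5.55% and 8.45% in Med23 CKO. Itgb1 made up between 68.0% and 78.1% in control and 89.2%, 56.8% and 76.4% in Med23 CKO. The low share in KO_214 went with a share of 21.8% for Itgb2, the leukocyte subunit, which was at most 6.59% in the controls. Among the alpha genes, the share of Itga7 was 5.62%, 8.81%, 8.62% and 13.4% in control and 1.76%, 4.67% and 2.63% in Med23 CKO. The share of Itga1 was 0.806%, 2.00%, 1.69% and 1.11% in control and 2.32%, 3.77% and 3.55% in Med23 CKO. Over all 37 members, the share in the class had all Med23 CKO values below the controls for Itgb8, Itga7 and Itga2b (8.11%) and above them for Itga1 (2.7%). These percentages are of the members, since the shares are defined only within these classes. The FPKM of Itga7, Itga2b and Itga1 overlapped between the groups. In KO_214 the summed alpha level was 233 FPKM, against 82.5 to 154 FPKM in control, and Itgam made up 15.6% of it. These shares are a description, made from the same FPKM as the differences above.

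**Figure D2:**
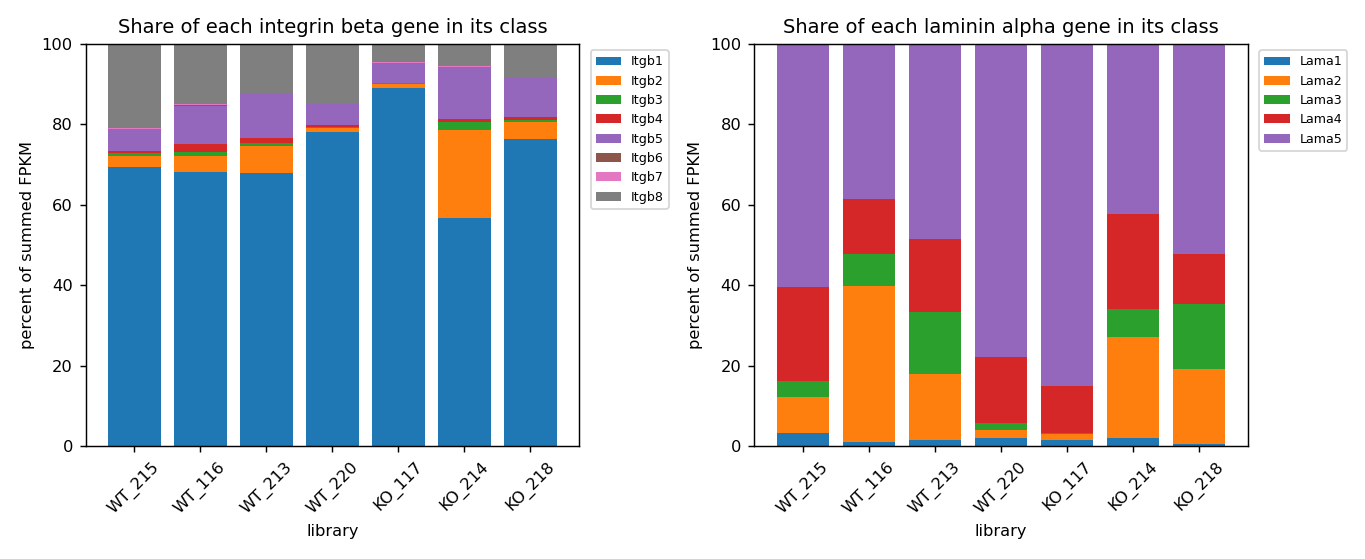
Percent of the summed FPKM of the integrin beta genes (left) and of the laminin alpha genes (right) that each gene makes up, in each of the 7 libraries (bars, in percent from 0 to 100). The share of Itgb8 is between 12.4% and 21.0% in the WT_ libraries and between 4.60% and 8.45% in the KO_ libraries, and Lama5 has the largest share of the alpha chains in every library except WT_116.

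The laminin genes gave no call at an unadjusted p under 0.05 (0 of 9 in the fit, by limma and by the exact permutation test), beside 0.502% higher and 0.996% lower among all genes tested by limma. Their median difference was 0.38, beside 0.35 for the 19 integrins in the fit and -0.03 for all genes tested. Without KO_214 the medians were -0.28 for laminins and -0.09 for integrins, and without KO_117 they were 0.87 and 0.63. Lamc1, the gamma chain of most laminins, was the most abundant, with 24.3, 31.4, 26.0 and 23.3 FPKM in the control libraries, against 34.2, 45.9 and 25.3 FPKM in Med23 CKO (difference 0.38, standard error 0.23, unadjusted limma p = 0.144, exact permutation p = 0.171). Its KO_218 value lay among the controls, and without that library the difference was 0.59 and passed the unadjusted threshold. Lama5, an alpha chain of mature basement membranes, led the alpha chains by mean level and had 6.33, 12.4, 12.5 and 14.7 FPKM in the control libraries, against 16.0, 18.5 and 10.6 FPKM in Med23 CKO (difference 0.38, standard error 0.32). Here too KO_117 and KO_214 were above all controls and KO_218 was not.

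The remaining alpha and beta chains were spread more widely within each group. Lamb1, the most abundant beta chain by mean level, had 8.42, 16.2, 6.75 and 3.97 FPKM in the control libraries, against 3.81, 37.9 and 9.71 FPKM in Med23 CKO, so that the lowest and the highest of the 7 values were both in Med23 CKO libraries. Its difference was 0.50 (standard error 0.72), and -0.31 without KO_214. Lamb2, the beta chain of synapses and vessels, ranged from 1.68 to 9.90 FPKM among the controls, with 5.67, 25.9 and 8.60 FPKM in Med23 CKO. Lama2, the alpha chain of muscle and of vessels in the brain, ranged from 0.392 to 6.35 FPKM among the controls, with 0.280, 10.9 and 3.76 FPKM in Med23 CKO. Lama4, an alpha chain of endothelial basement membranes, ranged from 2.24 to 4.80 FPKM among the controls, with 2.21, 10.3 and 2.53 FPKM in Med23 CKO. Lamc3 lay within 0.331 to 2.75 FPKM among the controls, against 0.241, 8.70 and 1.02 FPKM in Med23 CKO. Lama3, an alpha chain of epithelial laminin, was at most 3.93 FPKM. For Lamb1, Lama2, Lama3, Lama4 and Lamc3, the difference changed from positive to negative without KO_214.

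**Figure D3:**
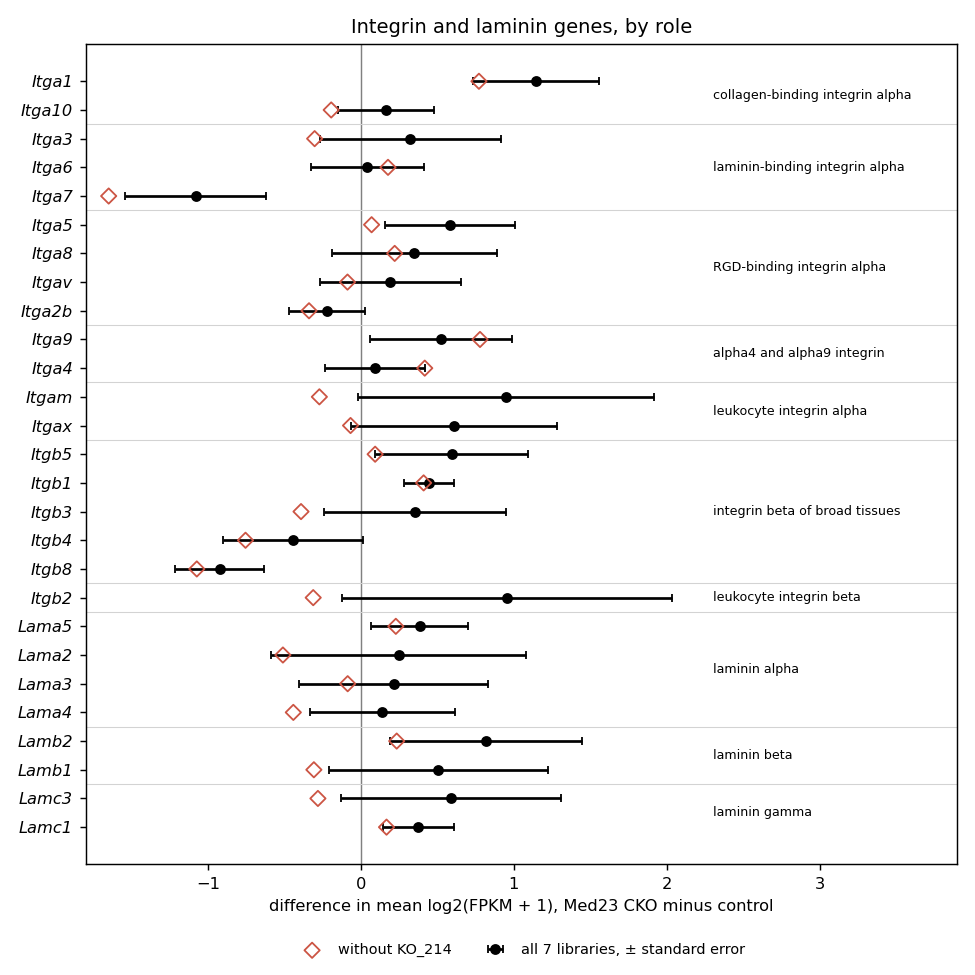
Difference in mean log2(FPKM + 1), Med23 CKO minus control (horizontal axis), for the integrin and laminin genes in the fit, grouped by role, without 1 gene that is not reported. Filled points with bars are the estimates from all 7 libraries ± standard error, and open diamonds are the estimates without KO_214. Itgb8 and Itga7 stay below 0 and Itgb1 and Itga1 above 0 in both, while 11 diamonds, against 23 filled points, lie above 0.

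Across the list, the mean was higher in Med23 CKO for 23 of the 28 genes (82.1%), beside 43.8% of all genes tested. Without KO_214 it was higher for 11 of the 28, beside 39.6% of all genes. The highest of the 7 values was in KO_214 for 18 of the 28 genes (64.3%), beside 25.4% of all genes tested, and for 8 of the 9 laminins. The lowest value was in KO_117 for 11 genes and in WT_220 for 10, beside 20.6% and 21.5% of all genes tested. The lowest values of many members were thus split over both groups, while KO_214, a Med23 CKO library, held most of the highest.

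The leukocyte integrins Itgb2 and Itgam were compared with the microglia markers, a list that holds no integrin. Itgb2, the beta subunit of leukocytes, had 7.42, 16.8, 6.36 and 1.93 FPKM in the control libraries, against 2.27, 83.7 and 10.3 FPKM in Med23 CKO. Itgam, the alpha subunit of the complement receptor of microglia and macrophages, had 3.32, 5.30, 2.68 and 0.619 FPKM in the control libraries, against 0.961, 36.3 and 3.46 FPKM in Med23 CKO. Their differences were 0.96 (standard error 1.08) and 0.95 (standard error 0.97), and -0.31 and -0.27 without KO_214. Itgax, a related alpha subunit, was between 0.396 and 3.98 FPKM among the controls, with 0.612, 8.15 and 2.09 FPKM in Med23 CKO. The 15 markers of microglia and macrophages summed to 269, 375, 129 and 65.8 FPKM in control and to 65.2, 1502 and 279 FPKM in Med23 CKO. Ordered by this sum, the libraries were KO_117, WT_220, WT_215, WT_116, KO_218, WT_213 and KO_214, and Itgb2 and Itgam had the same order except that KO_117 and WT_220 changed places. Of the 15 markers, 13 had their highest value in KO_214, and none was listed at 0 in any library.

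Markers of vessels also had their highest values in KO_214, as 8 of the 9 laminins did. The 11 endothelial markers summed to 38.8, 90.0, 16.3 and 19.5 FPKM in control and to 15.5, 152 and 51.3 FPKM in Med23 CKO, with 11 of 11 highest in KO_214. The 11 markers of mural cells and fibroblasts summed to between 49.5 and 98.4 FPKM in control and to 53.9, 364 and 61.7 FPKM in Med23 CKO, with 10 of 11 highest in KO_214. Cspg4, the marker not highest there, gave 6.43, 12.6, 43.2 and 51.0 FPKM of the control sums. In Med23 CKO it gave 47.2, 12.9 and 8.19 FPKM. It was thus most of the sum in WT_220 (59.9 FPKM) and KO_117, where the sum says little of the other markers. None of the endothelial, mural and fibroblast markers was listed at 0 in any library. Markers of the oligodendrocyte lineage summed to between 2865 and 5243 FPKM in control and between 2231 and 3180 FPKM in Med23 CKO, and those of neurons to between 120 and 150 FPKM and between 76.3 and 189 FPKM, with 0 of either list highest in KO_214. The part of these cells in the integrin and laminin levels was not tested.

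**Figure D4:**
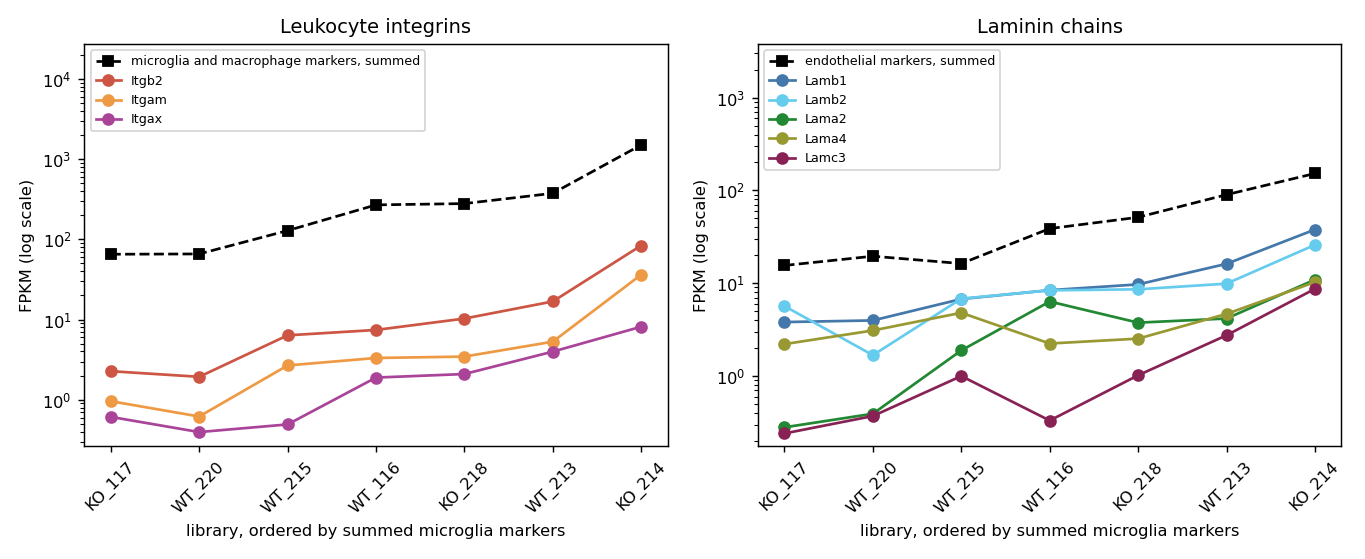
FPKM (vertical axes, log scale) in the 7 libraries, ordered along the horizontal axis by the summed FPKM of the 15 microglia and macrophage markers. The left panel shows that sum (dashed) with Itgb2, Itgam and Itgax. The right panel shows the summed FPKM of the 11 endothelial markers (dashed) with 5 laminin chains, Lamb1, Lamb2, Lama2, Lama4 and Lamc3. Lamc1 and Lama5, the most abundant laminins by mean level, are not drawn. They had 34.2 and 16.0 FPKM in KO_117, above all controls. KO_117 has the lowest of both sums (65.2 and 15.5 FPKM), and KO_214, with 1502 FPKM of microglia markers and 83.7 FPKM of Itgb2, has the highest of both.

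Some of these genes are neighbours in the genome, and neighbours differed in level. Itgam and Itgax are 11056 bases apart on chromosome 7, and Itgax and Itgad 3719 bases apart. Their mean levels over the 7 libraries were 7.52, 2.52 and 0.0415 FPKM. Itga1 and Itga2, both collagen-binding, are 20996 bases apart on chromosome 13 and had mean levels of 3.30 and 0.318 FPKM.

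The genes around these receptors were examined through fixed lists. Of 33 partners of integrins inside the cell, such as talins, kindlins and focal adhesion proteins, 32 were in the fit, 23 had a higher and 9 a lower mean in Med23 CKO, and limma and the exact permutation test called 0 at an unadjusted p under 0.05. Of 31 matrix ligands and other basement membrane genes, all in the fit, 28 had a higher and 3 a lower mean, and again 0 were called by either test. The mean was higher in Med23 CKO for 71.9% of the partners and 90.3% of the matrix genes, beside 43.8% of all genes tested. The medians of their differences were 0.13 and 0.44, beside -0.03 for all genes tested. Without KO_214, 11 of the 32 partners and 12 of the 31 matrix genes had a higher mean, beside 39.6% of all genes. The medians without KO_214 were -0.11 and -0.13, beside -0.06 for all genes. The highest value was in KO_214 for 19 of the 32 partners (59.4%) and for 23 of the 31 matrix genes (74.2%), beside 25.4% of all genes tested. Among all genes tested, limma called 0.502% higher and 0.996% lower, and the groups separated upward for 0.784% and downward for 1.53%. For 0 of the 63 partner and matrix genes did the groups separate, which like the calls is near the share over all genes. Lrrc32, which holds latent TGF-beta on the cell surface for the alphav-beta8 receptor, had the smallest p of them and is named after its values were seen, with 0.819, 2.52, 3.65 and 2.15 FPKM in the control libraries, against 2.62, 23.4 and 3.78 FPKM in Med23 CKO. Its difference was 1.27 (standard error 0.67, unadjusted limma p = 0.0968, exact permutation p = 0.0857) and 0.42 without KO_214, and its KO_117 value lay among the controls. Tnc, a matrix glycoprotein of neural stem cell niches, had 84.0, 241, 291 and 495 FPKM in the control libraries, against 307, 38.9 and 81.9 FPKM in Med23 CKO, a difference of -1.22 (standard error 0.79, unadjusted limma p = 0.167, exact permutation p = 0.286), which was -0.55 without KO_214 and -2.02 without KO_117, and its groups overlapped widely.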

How the data were processed

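RNA was sequenced from primary neurospheres of 4 control and 3 Med23 CKO libraries, grouped by their titles. The authors removed adapters, used TopHat for alignment to mm10 and Cuffdiff for FPKM per gene, and these FPKM values were deposited for each library; the gene annotation is not given in the sources used here. The deposited group means, and the authors' own fold changes, p-values and q-values, were not used. The low values showed no common step from which fragments could be recovered (at most 3.72% of low genes in a bin of 0.05 log2), so the depth is unknown and the number of libraries limits the precision. Correlations of log2(FPKM + 1) between libraries were 0.907 to 0.990.

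Genes with a mean of at least 0.5 FPKM were compared on log2(FPKM + 1) with limma 3.58.1 (trend, two-sided, Benjamini-Hochberg over 14151 genes; R 4.3.3), and single genes by exact permutation over the 35 splits. The fit was tested on simulated data. The members and lists were chosen with earlier results of these data known. Genes given for every library are those with an unadjusted p under 0.05 or separated groups, the most abundant of each role, and Itgb1, Itgb2 and Lamc1. Alternatives were a pseudocount of 0.1, no filter, a minimum mean FPKM of 1, median centring, quantile normalization, limma without trend, with robust empirical Bayes (statmod 1.5.0) or with array weights, the first digit of the title's number as covariate, the exact test per gene, and each library left out. Coordinates are from GENCODE M21 and promoters from RefSeq GRCm38.p6, the same assembly as mm10. Values of 1 gene of the list are not reported here, and it is included in the counts over the list.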

Additional observations from a re-analysis of the deposited data

Results flagged for a closer look

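Among 27 integrin and laminin genes in the fit, Dixon's test on the 4 control values of log2(FPKM + 1) marked 1 gene, where chance marks about 1 in 20. Control library WT_116 had 9.04 FPKM of Itga6, well below the other controls, which were between 17.9 and 19.1 FPKM. Without WT_116, the difference of Itga6 was -0.20.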

How the results depend on the processing

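When single libraries were omitted, the number of members higher at an unadjusted p under 0.05 was 0 to 2 and the number lower 1 to 2, the number with all Med23 CKO values above the controls was 1 to 3 and the number below 1 to 3, and the number of partner and matrix genes higher was 0 to 4 and lower 0 to 1. Smaller groups separate more easily, and the share of all genes that separated was not computed with a library left out. The 4 partner and matrix genes were called without KO_117, where limma gave 354 higher and 410 lower among all genes tested. The number higher was 0 without WT_116, without WT_220 and without KO_214, where Itgb1 had unadjusted limma p of 0.0781, 0.0554 and 0.0727. The exact permutation test gave 1 member higher and 1 lower (Itgb1 and Itgb8), array weights gave 1 higher, and robust empirical Bayes and no filter on low values each gave 1 lower. Quantile normalization separated the groups for 2 members higher, Itga1 being the second. Of the partner and matrix genes, 1 was lower with array weights (Tnc) and 1 higher with the covariate (Lrrc32). The differences that changed sign when a library was left out ranged as follows: Itga4 (-0.21 to 0.42), Itga6 (-0.31 to 0.26), Lama4 (-0.44 to 0.47), Itga8 (-0.071 to 0.72), Itgav (-0.12 to 0.63), Lama2 (-0.51 to 1.10), Lama3 (-0.14 to 0.87), Itga9 (-0.073 to 0.86), Itga10 (-0.19 to 0.37), Itga3 (-0.30 to 0.97), Itgam (-0.27 to 1.85), Itgax (-0.0679 to 1.18), Itgb2 (-0.31 to 2.04), Itgb3 (-0.39 to 0.93), Lamb1 (-0.31 to 1.20), Lamc3 (-0.28 to 1.20). Lama3 was -0.000796 with a pseudocount of 0.1, and with array weights Itga10 was -0.15, Itga6 -0.36, Lama4 -0.33 and Lamc3 -0.00197. None of these genes passed the test in the fit of all libraries, and the cause was not tested. At the same threshold limma gave 71 higher and 141 lower among all genes tested, 99 and 119 with median centring, 102 and 123 with quantile normalization, and 193 and 887 with array weights. Of the results for single genes, 259 kept direction and side of the threshold under the alternatives other than leaving out a library, 5 lost the threshold and 5 changed sign. With a library left out, 151 kept both, 14 lost the threshold, 23 changed sign and 1 passed it. Under every limma alternative, 0 of the members passed an adjusted p under 0.05, and under every alternative the Itgb8 difference was between -1.07 and -0.65. With a library left out, a check added after seeing the data, the median difference was -0.11 (without KO_214) to 0.28 (without KO_117) for the integrin partners, and -0.13 (without KO_214) to 0.80 (without KO_117) for the matrix genes, for which it was 0.21 without WT_220. No paired analysis was possible because the groups share no replicate numbers. Depth is unknown, so no floor can be given for genes listed near 0.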
